A study of Bos taurus with 4 samples.

Results

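The genes described here encode the core of the small RNA silencing machinery. The set was chosen by gene symbol: the Argonautes AGO1, AGO2, AGO3 and AGO4, the processing factors DROSHA, DGCR8, DICER1 and TARBP2, the exporter XPO5 and the adaptor TNRC6A. Of these 10 symbols, 5 had a probe set named in the annotation used here (AGO2, AGO3, DGCR8, DICER1 and TARBP2), with 7 probe sets among the 24016 tested and 5 genes among 9155 named. The other 5 were not analysed here. The set was proposed, and AGO2 selected from it, with its change after treatment already known, so the treatment values of these genes are given as a description, without a test.

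Cells were gamma delta T cells of cattle, a lymphocyte class that is abundant in the blood of young ruminants, sorted to a purity above 97% from calves that the sample labels put at 1 to 6 months of age and the series text calls neonatal. After a night of rest, cells of calf 301 and of calf 303 received either an apple polyphenol extract in water (APP, 42.2 µg/ml in the series text) or phosphate-buffered saline (PBS, the vehicle) for 4 h. One Affymetrix bovine array was run per calf and treatment, 4 arrays in all, so n = 2 calves in each group and each calf is its own control. No genotype or strain of the animals was used here, and each group rests on the same 2 animals.

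MicroRNAs begin as hairpins within longer transcripts. DROSHA with its RNA-binding partner DGCR8 (together the Microprocessor) cuts the hairpin out in the nucleus, XPO5 carries it to the cytoplasm with the GTPase RAN, and DICER1 with TARBP2 trims it to a short duplex. An Argonaute protein keeps one strand as a guide, and proteins of the GW182 family such as TNRC6A connect the Argonaute to deadenylases and decapping enzymes that silence the target mRNA. Among mammalian Argonautes, AGO2 is the one best known for cutting targets itself. In T cells, activation is known to lower the amount of Argonaute protein and to remodel the microRNA pool.

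Every value below is a ratio of a probe set's signal to its own median over the 4 arrays, or the log2 of it. A ratio shows how a probe set differed between arrays and not how abundant its transcript was, so AGO2 cannot be set against AGO3 by level. In bulk RNA, fewer cells of a type and less RNA per cell cannot be told apart.

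AGO2 was 9.08-fold higher after APP (log2 change 3.18 ± 0.02, SD, n = 2 calves), ranking 20 from the top among 9155 genes. Its first probe set gave ratios of 0.198 and 0.190 in the PBS arrays of calves 301 and 303, and of 1.78 and 1.79 in their APP arrays. The other AGO2 probe set gave 0.195 and 0.213 with PBS and 1.75 and 1.90 with APP. Both PBS arrays were thus low and both APP arrays high on either probe set, with no overlap and with a gap far wider than that between the calves.

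The agreement between calves and between probe sets was close. The gene's change was 3.17 in calf 301 and 3.20 in calf 303, a gap of 0.03 that was exceeded by 89.5% of all genes. By probe set, the mean change was 3.20 (9.20-fold) and 3.16 (8.96-fold). AGO2 was the only one of the 5 measured genes that was at least 2-fold higher in both calves, a size reached by 3.5% of all genes (320 of 9155). Since AGO2 was chosen on this change, nothing is read from that share.

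**Figure D1:**
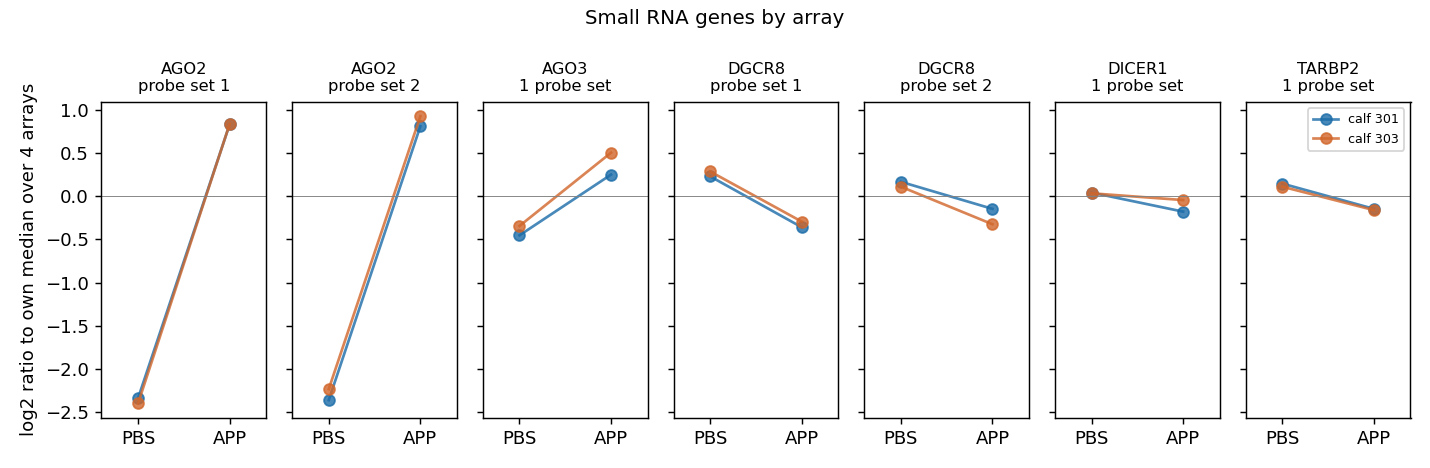
Log2 ratio of each probe set to its own median over the 4 arrays (vertical axis) in PBS and APP arrays, with a line per calf and a panel per probe set. AGO2 runs from about -2.3 to above 0.8 on either probe set, AGO3 is higher with APP by less, and the DGCR8, DICER1 and TARBP2 lines slope gently down.

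AGO3, the other Argonaute measured and one that can also load microRNAs, was 1.71-fold higher (0.78 ± 0.10, SD, n = 2 calves). Its ratios were 0.731 and 0.788 with PBS and 1.19 and 1.42 with APP, in the order of calves 301 and 303. The groups did not overlap, and calf 301 gave a change of 0.70 and calf 303 one of 0.85. The log2 change of AGO2 was larger than that of AGO3 in each calf. Since AGO2 was chosen on that change, nothing is read from this, and the difference was not tested. Whether the AGO3 or AGO2 probes also bind transcripts of AGO1 or AGO4, which are related in sequence, could not be checked, because no probe sequences were used here.

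The processing genes lay on the other side of 0. DGCR8, the hairpin-binding subunit of the Microprocessor, was 1.39-fold lower (-0.48 ± 0.04, SD, n = 2 calves). One of its probe sets gave 1.17 and 1.22 with PBS against 0.780 and 0.816 with APP, the other 1.12 and 1.08 against 0.904 and 0.799. Both probe sets had lower values in both APP arrays, by means of -0.58 and -0.37.

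TARBP2, the RNA-binding partner of DICER1, was 1.22-fold lower (-0.28 ± 0.015, SD, n = 2 calves), with ratios of 1.11 and 1.08 with PBS and 0.904 and 0.895 with APP. The calves gave -0.29 and -0.27, close to each other but small beside the AGO2 change. DICER1, the RNase that makes the short duplex, gave 1.03 and 1.02 with PBS and 0.884 and 0.970 with APP. Its change was -0.22 in calf 301 and -0.08 in calf 303 (-0.15 ± 0.10, SD, n = 2 calves), the smallest of the set and comparable in size to its spread between calves.

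All 7 probe sets kept the PBS and APP arrays apart, the 3 Argonaute ones with APP higher and the other 4 with APP lower. Such separation was common on these arrays: both APP arrays lay above both PBS arrays for 33.7% of probe sets and below them for 32.9%. Of all genes, 37% had a change below that of DICER1, 30.1% below that of TARBP2 and 21.7% below that of DGCR8, so these 3 lay within the broad middle of the array. AGO3 had 93.6% of genes below it and AGO2 99.8%.

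**Figure D2:**
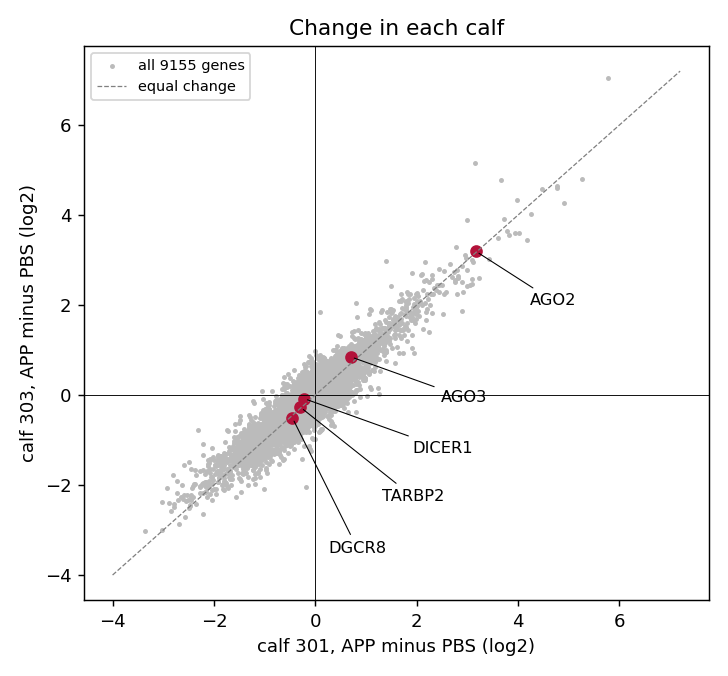
Log2 change (APP minus PBS) in calf 301 (horizontal) against calf 303 (vertical) for 9155 genes in grey and the 5 measured small RNA genes in red, with the dashed line of equal change. AGO2 lies on the line near 3.2 in both calves, AGO3 between 0.70 and 0.85, and DGCR8, TARBP2 and DICER1 just below 0.

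The scale on which arrays are compared bears on the smaller values. Bacterial transcripts bioB, bioC and bioD, which are added at hybridization, gave higher ratios with APP on all 7 of their probe sets, by 0.57 to 1.08 on the log2 scale (mean 0.85). Scaling the arrays to these controls (control scaling) moved the median change of all genes from 0.01 to -0.84. On that scale AGO2 remained higher (2.33, with 2.39 in calf 301 and 2.27 in calf 303), AGO3 stood at -0.08, and DICER1, TARBP2 and DGCR8 stood at -1.0, -1.13 and -1.33. This scaling moves every gene's mean change by the same amount, so it leaves the order of genes and their distance from the median gene as they were, and it turns the sign of genes with a smaller rise than that amount, AGO3 among them.

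**Figure D3:**
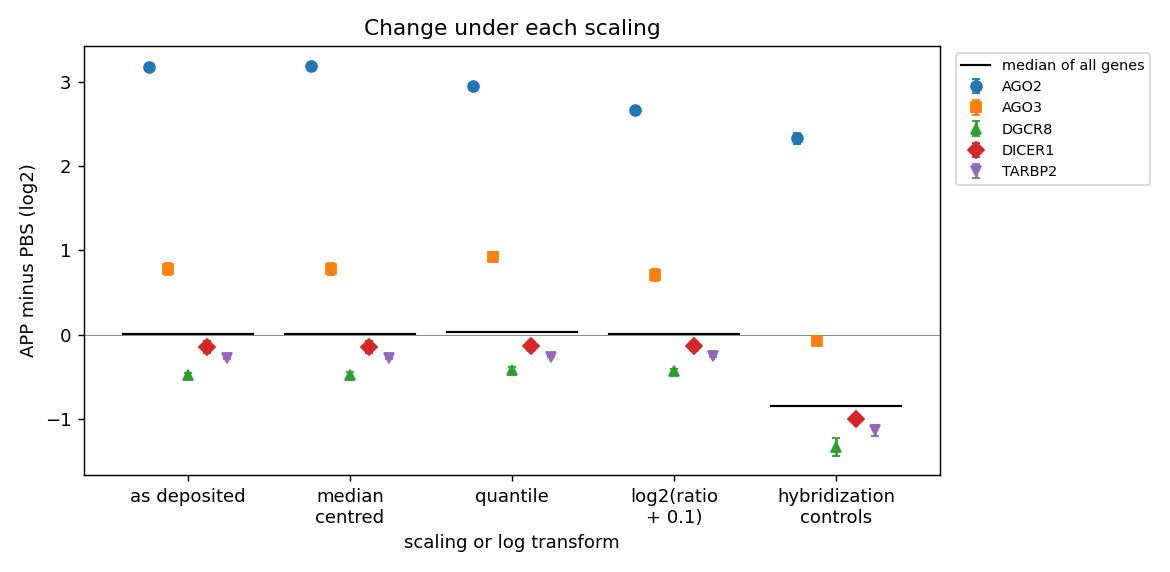
Log2 change (APP minus PBS) of the 5 genes (symbols: mean of the calves, bars: the range over the 2 calves) under 5 ways of scaling or transforming the arrays, with the median of all genes as a black line. AGO2 stays between 2.33 and 3.18 throughout, and AGO3 crosses 0 under control scaling, where the median gene stands at -0.84.

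The difference between the animals was not used to choose these genes and was tested in the same limma fit, where it is the calf term. None of the 5 genes passed an adjusted p of 0.05, and none had an unadjusted p under 0.05. Over all genes 1.7% passed (156 of 9155), a count that was 919 after control scaling, 82 after median centring, 83 with the median over probe sets and 2 after quantile normalization. With no treatment term 0 genes passed in limma, and 81 had an unadjusted p under 0.05. In each of these fits, too, none of the 5 had an unadjusted p under 0.05. The calf 303 minus calf 301 difference of AGO2 was 0.05 ± 0.09 (limma's standard error, adjusted p = 0.859), and that of AGO3, the widest, 0.18 ± 0.10 (adjusted p = 0.406). DICER1 (0.06), TARBP2 (-0.03) and DGCR8 (-0.03) had adjusted p from 0.811 to 0.927. With 2 calves, differences of this size could not be resolved.

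AGO2 lies apart from the other Argonautes in the cattle genome. In the RefSeq gene order of assembly ARS-UCD2.0, used for names and order only, AGO3, AGO1 and AGO4 follow one another, while AGO2 lies between PTK2 and CHRAC1. PTK2, which encodes the focal adhesion kinase, gave 0.00 and -0.19 in the calves (limma, adjusted p = 0.482). CHRAC1, a subunit of a chromatin remodelling complex, fell by 0.61 on average (adjusted p = 0.00202), and TRAPPC9, the gene after it, rose by 0.42 (adjusted p = 0.00995) but stood at -0.43 after control scaling. None of these 3 measured neighbours came near the AGO2 change. Since AGO2 was chosen on that change, nothing is read from this, and the difference was not tested.

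Among genes outside the lists used here, the 5 whose 4 array values lay nearest to those of AGO2, by Euclidean distance of log2 ratios, were TNFRSF18 (distance 0.31), NFKBIA (0.33), ID2 (0.38), SNX9 (0.38) and TRAF1 (0.44). TNFRSF18 is a costimulatory receptor, NFKBIA the NF-kappaB inhibitor, ID2 an inhibitor of helix-loop-helix factors, SNX9 a sorting nexin and TRAF1 a signalling adaptor of TNF receptors. With PBS their log2 ratios lay between -2.31 and -1.94, against -2.35 and -2.31 for AGO2. Their mean changes lay between 2.88 and 3.05, and after control scaling between 2.03 and 2.19. Likeness over 4 arrays describes size of change and little else.

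The wider pathway was read from 7 lists of genes that act before, beside or after the core machinery. Of 101 symbols, 63 genes were measured. Tested with limma, calf as block, at an adjusted p of 0.05, 26 rose (41.3%) and 16 fell (25.4%), and 21 passed in neither direction, against 23% of all genes that rose and 29.7% that fell. The median change was 0.09, beside 0.01 over all genes. After control scaling 1 rose and 48 fell, with a median of -0.77. Of all 9155 genes, 298 rose and 8224 fell there, with a median of -0.84. Leaving out 1 array, which drops the calf block, gave 14 rises and 12 falls without PBS of calf 301, 16 and 12 without APP of calf 301, 12 and 10 without PBS of calf 303, and 21 and 14 without APP of calf 303. None of the 63 reached the change of AGO2, but AGO2 was chosen on that change, so nothing is read from this. ZC3H12A came nearest among the rises.

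**Figure D4:**
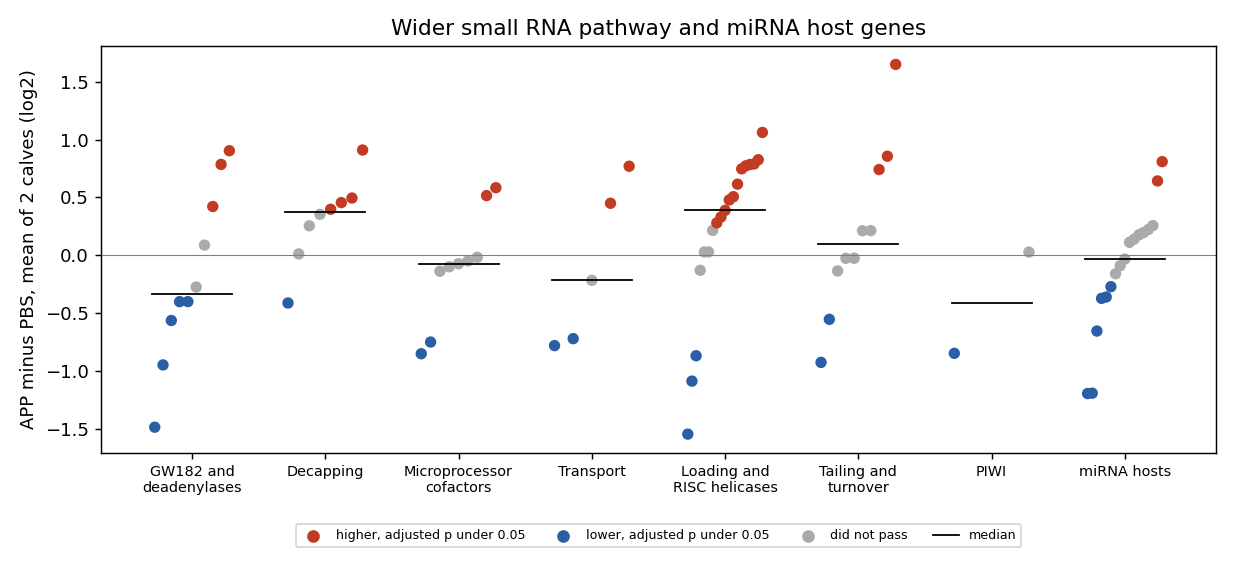
Log2 change (APP minus PBS, mean of the calves) of each measured gene in the 7 wider lists and the microRNA host list, coloured by limma's adjusted p, with the median of each list as a bar. The loading and RISC helicase list has most of its points above 0, the GW182 and deadenylase list most of its points below 0, and no point exceeds 1.65.

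Factors that load Argonautes or act with them formed the largest of the wider lists and had the most rises, 12 of 19. Rises made up 63.2% and the 3 falls 15.8%, against 23% and 29.7% of all genes, and 4 did not pass. The list's median of 0.39 became -0.46 after control scaling, where 0 rose (0 also at an unadjusted p under 0.05 in limma) and 12 fell. Of all 9155 genes, 298 rose and 8224 fell on that scale. Rises numbered 7 without the PBS array of calf 301 and 6 without that of calf 303. Much of the list is the chaperone machinery that holds Argonaute open for a duplex. HSP90AB1 and HSP90AA1, the cytosolic HSP90 proteins, rose by 0.83 and 0.75, the cochaperone genes FKBP4 and PTGES3 by 0.78 and 0.61, and HSPA4 and HSPA8 of the HSP70 group by 0.77 and 0.48. All of these stood below 0 after control scaling, HSP90AB1 at -0.03 and FKBP4 at -0.07. These genes serve protein folding at large.

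The rest of that list moved both ways. MOV10, an RNA helicase found with Argonaute, rose 2.09-fold (1.03 in calf 301 and 1.10 in calf 303, limma's adjusted p = 0.000144), or 0.21 after control scaling. PRKRA, which like TARBP2 binds DICER1, fell 2.92-fold (-1.66 and -1.43, adjusted p = 4.98e-05), with -2.20 to -0.29 over its 3 probe sets. FMR1, an RNA-binding protein tied to Argonaute complexes, fell 2.13-fold (-1.28 and -0.90, adjusted p = 0.000335), while its paralog FXR2 rose by 0.28 and FXR1 stood at -0.13 (adjusted p = 0.289). P4HA1, a subunit of the prolyl hydroxylase known to modify AGO2, fell by 0.87 and P4HB, its partner, rose by 0.33. TSN, a subunit of the nuclease C3PO that clears the passenger strand, rose by 0.79, with 0.41 to 1.06 over its 3 probe sets. P4HB, FXR2 and TSN stood below 0 after control scaling.

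Downstream of the Argonautes, deadenylases and their partners moved both ways, with 3 rises and 5 falls among 10 measured. These shares were 30% and 50%, against 23% and 29.7% of all genes. The list's median was -0.34, or -1.19 after control scaling. Falls numbered 2 without either PBS array and 3 without the APP array of calf 301. The paralogous deadenylase subunits CNOT6 and CNOT6L went in opposite directions: CNOT6 fell 2.81-fold (-1.53 in calf 301 and -1.44 in calf 303, limma's adjusted p = 4.37e-05) and CNOT6L rose 1.87-fold (0.89 and 0.92, adjusted p = 0.000277), standing at 0.05 after control scaling. PAN2, the catalytic subunit of the other deadenylase, fell 1.93-fold (-0.91 and -0.99). TNRC6B, the only GW182 gene measured, fell by 0.40 (-0.57 and -0.24, adjusted p = 0.0221). CNOT9, the subunit that GW182 proteins bind, rose by 0.79 on average, but its 3 probe sets ran from 0.02 to 1.88 and its mean stood at -0.07 after control scaling.

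Of 8 decapping genes 4 rose and 1 fell (50% and 12.5%, against 23% and 29.7% of all genes). Their median was 0.38, or -0.48 after control scaling. LSM1, of the ring that binds shortened tails, rose by 0.91 (1.03 in calf 301 and 0.79 in calf 303), and the decapping cofactors DCP1A and DCP1B by 0.49 and 0.45. The probe sets of DCP1A ran from -0.06 to 1.03. After control scaling, LSM1 stood at 0.06, DCP1A at -0.36 and DCP1B at -0.40. Without the PBS array of calf 301, the APP array of calf 301 or the PBS array of calf 303, the list had 1 rise and DCP1A and DCP1B no longer passed (DCP1A at 0.45 to 0.53, DCP1B at 0.40 to 0.48). LSM14A, a P-body protein, was the member that fell (-0.41), a call lost without either PBS array or the APP array of calf 303.

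Upstream, cofactors of the Microprocessor gave 2 rises and 2 falls among 9, with 5 that did not pass (median -0.07). Each share was 22.2%, against 23% of all genes that rose and 29.7% that fell. The RNA helicase gene DDX17 fell 1.81-fold (-0.88 in calf 301 and -0.82 in calf 303), whereas DDX5, its close paralog, stood at 0.04 and -0.08 (limma's adjusted p = 0.891). TARDBP, an RNA-binding protein that associates with DROSHA, fell by 0.75, while ILF2 rose by 0.58 and SAFB2 by 0.52, both below 0 after control scaling. Neither rise passed without the PBS array of calf 301 or that of calf 303, with ILF2 at 0.56 and 0.61. In the transport list, RAN, the GTPase that XPO5 needs, rose by 0.77 (0.76 and 0.78), or stood at -0.08 after control scaling. The exportin gene XPO1 fell by 0.78 and IPO8, an importin known to bind Argonautes, by 0.72 (-0.82 and -0.62). Without the APP array of calf 301, XPO1 stood at -0.53 and no longer passed, nor did it without the PBS array of calf 303 (-0.67).

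Of 10 measured genes for tailing and turnover of small RNAs, 3 rose, 2 fell and 5 did not pass (median 0.09). Rises made up 30% and falls 20%, against 23% and 29.7% of all genes. ZC3H12A, an RNase that cuts cytokine mRNAs and also microRNA precursors, rose 3.14-fold (1.64 in calf 301 and 1.66 in calf 303, limma's adjusted p = 2.86e-05) and stood at 0.80 after control scaling, the one member of the 63 that still rose there. PNPT1, a mitochondrial exoribonuclease, rose by 0.86 and XRN2, a nuclear one, by 0.74, and these stood at 0.00 and -0.11 on that scale. PARN, which trims tails of small RNAs, fell 1.90-fold (-0.86 and -0.99), and the exosome nuclease gene DIS3 fell by 0.56. The falls numbered 1 without the APP array of calf 301 or the PBS array of calf 303. The uridylyl transferase gene TUT7 stood at -0.03 (adjusted p = 0.837). Of 12 germline PIWI pathway symbols only ASZ1 (-0.85) and MAEL (0.03, adjusted p = 0.846) were measured.

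MicroRNAs themselves were not measured here, but genes whose bounds in the genome hold microRNA genes were. All 17 measured genes of a list of hosts held a microRNA gene within their bounds in the RefSeq table. That table gives no strand, so whether a gene's own transcript carries the hairpin was not checked. Of the 17, 6 fell (35.3%, against 29.7% of all genes), 2 rose (11.8%, against 23%) and 9 did not pass. Their median was -0.03, or -0.89 after control scaling. Falls numbered 3 without the PBS array of calf 301 and 2 without any other single array. EVL, which holds MIR342, fell 2.29-fold (-1.36 in calf 301 and -1.03 in calf 303, limma's adjusted p = 0.00018), and CTDSP2, which holds MIR26A-2, fell 2.29-fold (-1.25 and -1.14, adjusted p = 9.3e-05). The other falls were SMC4 (-0.66, with MIR15B and MIR16B), MCM7 (-0.37, with MIR106B, MIR25 and MIR93), CTDSP1 (-0.36) and DNM2 (-0.27). The probe sets of SMC4 ran from -1.07 to -0.06 and those of CTDSP1 from -0.77 to 0.05. PANK3, with MIR103-1, rose by 0.81 (0.57 and 1.05), and SREBF1, with MIR33B, by 0.64, at -0.04 and -0.21 after control scaling.

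The same table allowed a count over every measured gene that holds a microRNA gene, 301 genes with 353 microRNA genes. Of these, 67 rose (22.3%), 84 fell (27.9%) and 150 did not pass, shares close to the 23% and 29.7% of all genes. Their median change was 0.03, beside 0.01 over all genes. After control scaling 5 rose and 279 fell, where 298 of all 9155 genes rose and 8224 fell. Without the calf block 42 rose and 63 fell, where 1399 of all genes rose and 2161 fell. Leaving out 1 array gave 20 rises and 42 falls without PBS of calf 301, 28 and 51 without APP of calf 301, 17 and 38 without PBS of calf 303, and 40 and 57 without APP of calf 303. The largest changes were a rise of 4.59 for SPRY1, an inhibitor of growth factor signalling that holds MIR12036, and a fall (-2.46) for MYO1F, a myosin gene that holds MIR339B. A host transcript's change is not a measure of the mature microRNA.

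Markers of several cell types were read beside the label. Of 10 genes listed for gamma delta T cells 8 were measured, and the delta and gamma chain constant genes were not among them. Most of the 8, the CD3 genes among them, are shared with other T cells, so the list cannot tell gamma delta T cells apart. With APP 5 of these 8 fell, against 29.7% of all genes, and 1 rose (CD5, at -0.23 after control scaling). Falls numbered 2 without either PBS array, 3 without the APP array of calf 301, and 7 after control scaling. Their ratios summed to 8.62 and 9.89 in the PBS arrays and to 6.36 and 7.39 in the APP arrays. Of 6 measured monocyte and dendritic cell markers, 3 rose, against 23% of all genes: CD68 by 2.31, CD14 by 0.46 and FCGR1A by 0.46. The other 3 did not pass and lay between 0.04 and 0.13. The ratios of the 6 summed to 5.0 and 4.95 with PBS and to 7.08 and 7.93 with APP, with CD68 the largest part of the rise. Such sums weight each marker alike whatever its abundance, so they do not measure cell content. Rises numbered 1 without either PBS array or the APP array of calf 301, and after control scaling 1 rose and 5 fell. Markers of B cells gave 0 rises and 2 falls among 3, against 23% and 29.7% of all genes. Those of NK cells, granulocytes, and platelets or red cells gave 0 changes among 13 at an adjusted p of 0.05 in limma. Of all genes, 23% rose and 29.7% fell at that threshold. At an unadjusted p under 0.05 in limma 1 of these 13 changed. After control scaling these 13 all fell, as did the 3 of B cells, on a scale where 8224 of 9155 genes fell. Falls of B cell markers numbered 1 without any single array other than PBS of calf 301.

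Of the 3 measured CD4 and CD8 markers, both CD8 chains differed between the animals. The ratios of the 3 summed to 1.77 and 2.22 in the PBS and APP arrays of calf 301 and to 4.41 and 4.51 in those of calf 303. CD8B, a chain of the CD8 coreceptor, was higher in calf 303 by 2.30 (calf term, limma's adjusted p = 0.000499) and CD8A, its partner chain, by 1.59 (adjusted p = 0.00673), while CD4 differed by -0.11 (adjusted p = 0.607). CD2, of the gamma delta list, was also higher in calf 303, by 1.10 (adjusted p = 0.00382). Over all genes 1.7% passed on the calf term (156 of 9155). After quantile normalization only 2 genes passed, so CD8A, CD8B and CD2 did not all pass there. With no treatment term 0 genes passed, these among them. With APP CD8A rose by 1.08 and CD8B fell by 0.64. CD8A passed neither without the calf block nor without any single array other than PBS of calf 303, and CD8B passed in none of these fits. After control scaling 2 of the 3 markers fell, on a scale where 8224 of 9155 genes fell, and CD8A did not pass. The change of AGO2 was 3.17 and 3.20 in these animals. Ratios do not show which markers were absent. The part of other cells in the AGO2 value was not tested.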

How the data were processed

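RNA of sorted gamma delta T cells was profiled on 4 Affymetrix bovine arrays, PBS and APP for each of 2 calves, assigned from the sample titles. The target was biotinylated cRNA from 15 µg of RNA, per the labels' protocols. Per the submitters' processing notes, the authors summarised probes with RMA, with version, background and scaling options not given in the sources used here. The deposited values are linear ratios of each probe set to its own median, which was read from the values: they run from 0.0264 to 6.814 with array medians from 0.991 to 0.995. Levels and any dim-probe filter are therefore lost, and precision is limited by the number of arrays.

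The ratios were log2 transformed with no pseudocount. All 112 control probe sets were left out. Probe sets were named through the platform annotation, whose Entrez identifiers were updated through RefSeq (ARS-UCD2.0): 13292 had 1 gene, 86 several and 10638 none, and 13263 matched RefSeq by identifier. Values of a gene's probe sets were averaged over 9155 genes.

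Treatment and calf were fitted together in limma 3.58.1 (R 4.3.3, lmFit and eBayes, two-sided), with Benjamini-Hochberg adjustment over all genes at 0.05. Blocking by calf follows the sample titles, in which each animal appears once per treatment. The calf difference with PBS correlated with that with APP over 9155 genes (r = 0.509). Residual degrees of freedom were 1, prior ones 5.86. An exact permutation test of 2 arrays against 2 cannot go below p = 0.33 and was not run. The fit was tested on simulated data. P-values in this fit rest on how far the changes of the 2 calves disagree, moderated toward a variance pooled over genes. They do not measure the spread over further animals.

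The genes, lists and tests were chosen with earlier results of these data known. Named genes are the measured core genes, up to 3 passing genes per list with the largest change of 1 direction in both calves, and the 5 genes nearest AGO2. Other genes named were chosen after their values were seen, as was the count over all microRNA-holding genes. Alternatives were 3 scalings, a pseudocount of 0.1, the median over probe sets, no block and leaving out each array. Of the sequences of these genes and probes, none was used here.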

Additional observations from a re-analysis of the deposited data

Results flagged for a closer look

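The 7 probe sets of the hybridization controls bioB, bioC and bioD stood out in data outside the gene comparisons. They were higher with APP than with PBS by 0.85 on average on the log2 scale, with medians of 0.77 in calf 301 and 0.96 in calf 303. AGO2 exceeded that shift on both of its probe sets in both calves, AGO3 did so in neither calf. The part of this shift in the other results was not tested beyond the scaling to these controls.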

How the results depend on the processing

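Levels are lost in ratios to a probe set's own median, so signal over background could not limit the values given, and 2 calves limit every test. The AGO2 change of 3.18 was 2.33 when scaled to the hybridization controls, 2.95 after quantile normalization and 2.67 with log2(ratio + 0.1), and lay between 3.15 and 3.21 without single arrays. It was higher with APP under all of these and under median centring (3.18). The median over its 2 probe sets equals their mean, so that alternative could not change the AGO2 value. Scaled to the hybridization controls, AGO3 turned to -0.076, DCP1A to -0.36, DCP1B to -0.40, ILF2 to -0.27, PANK3 to -0.043 and RAN to -0.083. The calf 303 minus calf 301 differences turned to -0.14 (AGO2), -0.0058 (AGO3) and -0.12 (DICER1) on that scale, and that of AGO2 to -0.038 after quantile normalization.

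Over all genes, 298 rose and 8224 fell when scaled to the hybridization controls, so that rises were 3.5% of calls against 43.6% as deposited. The wider list then had 1 rise and 48 falls, and the host list 0 and 15. The calf block bears on the calls: with no replicate block 1399 genes rose instead of 2104, while 2161 fell instead of 2717. Without it no call changed among the 22 list genes named by the rule, which are those with the largest changes. Calls were lost elsewhere in the lists: rises went from 26 to 22 in the wider list and from 12 to 9 among loading factors, falls from 6 to 4 among hosts, and CD8A and CD8B no longer passed. Leave-one-out fits, unpaired and on fewer arrays, gave 745 to 1292 rises and 1305 to 2012 falls over all genes, 12 to 21 rises and 10 to 14 falls in the wider list, and 2 to 3 falls among hosts. Genes higher in calf 303 numbered 116, and 66 after median centring, 67 with the median over probe sets, 2 after quantile normalization and 0 with no treatment term. Genes lower there numbered 40, and 783 when scaled to the hybridization controls, 16 after median centring, 16 with the median over probe sets, 0 after quantile normalization and 0 with no treatment term. At an unadjusted p under 0.05 in limma, 656 genes were higher and 705 lower after quantile normalization, and 63 and 18 with no treatment term.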
